A study of Homo sapiens with 15 samples.

Results

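The comparison described here is between 2 human myeloid leukemia cell lines, U937 and ML1, without the study's drugs. It rests on 6 of the 15 RNA-seq libraries of the series, 3 of U937 and 3 of ML1, chosen by their labels: cell line and diluent as the agent. The cells were cultured for 24 h with diluent in the presence of 5 µM Q-VD-OPh, a pan-caspase inhibitor that blocks apoptosis and that every group of the series received, so neither line was without any agent. The remaining libraries were treated with 10 nM prexasertib, an inhibitor of the checkpoint kinase CHK1, in both lines, or in U937 with prexasertib and 350 nM LSN622666. The labels give both lines as acute myeloid leukemia from blood, and each is a single established line. The labels do not say that the libraries of a group came from separate cultures, so the p-values measure the spread between these libraries, which may be technical.

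Myeloid cells develop from stem and progenitor cells that express receptors such as FLT3 and KIT and transcription factors of the HOX and MEIS families. Promyelocytes, the next stage of the granulocyte path, make the proteins of the primary granules (myeloperoxidase and a group of serine proteases), while monocytes acquire CD14, the CSF1 receptor and lysozyme under factors such as PU.1 (SPI1) and KLF4. Leukemia lines are arrested along these paths. U937 is widely used as a line with monocytic features, and ML1 as a myeloblastic line.

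The 6 libraries held between 49011222 and 87301014 counts. Libraries of the same line and treatment correlated at 0.988 to 0.9937 on log2 CPM (counts per 1000000 counts of a library, scaled by edgeR's TMM factors), and they differed by far more than sampling noise (chi-square of 20.49 to 86.9 per gene), so each was counted as 1 sample. Genes of the T cell receptor complex (CD3D, CD3E and CD3G), the B cell antigen MS4A1, the erythroid gene HBB and the epithelial gene EPCAM had no read in any of the 6 libraries, while SPI1, CEBPA, ELANE and LYZ were above 100 CPM in all of them. Defining genes of the myeloid lineage were thus read in both lines, as labelled. CD14, the monocyte co-receptor for lipopolysaccharide, was at most 0.278 CPM in every library of both lines.

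Differences between the lines covered most of the genes. Of 17243 genes tested, 10586 (61.4%) were called, meaning an adjusted p under 0.05 (edgeR's quasi-likelihood F test, Benjamini-Hochberg). Of these, 5510 (32% of those tested) were higher in U937 and 5076 (29.4%) were lower. A call with a difference of at least 2-fold was reached by 3382 genes (19.6%) in the direction of U937 and by 2575 (14.9%) in that of ML1, and the median log2 fold change over all genes tested was 0.01. All log2 fold changes below are U937 minus ML1, so that negative values mean higher levels in ML1. Pairs of means in parentheses give U937 first unless stated, and the counts of each gene group are to be read against these shares. Genes of the lists used below were called more often than all genes, at 70% of the 560 distinct list genes tested. Many genes named below were picked for a small p or a large difference. For these a lack of overlap between the lines is a description and adds no support.

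**Figure D1:**
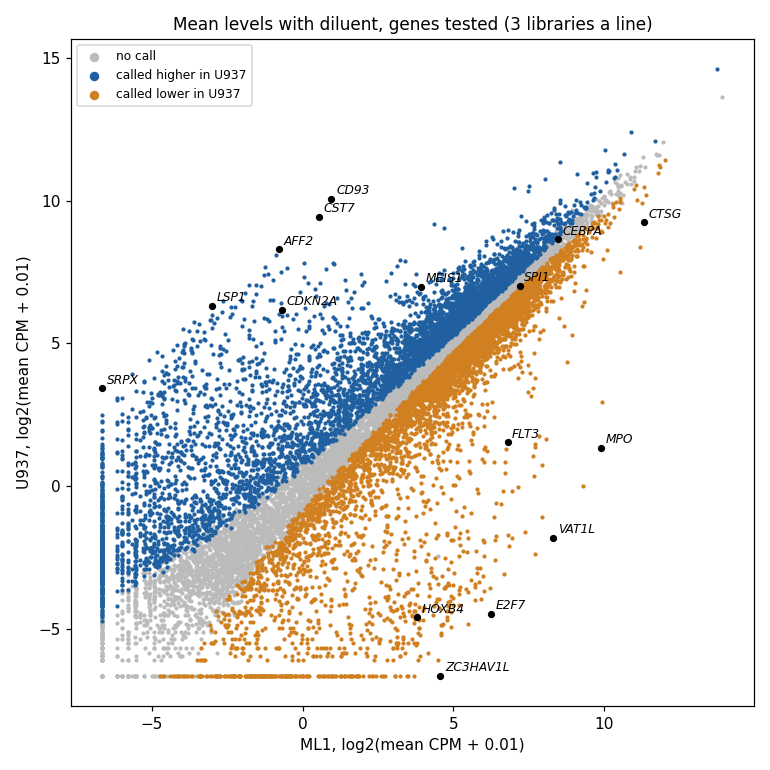
Each point is 1 of the 17243 genes tested, with the mean CPM (plus 0.01, log2 scale) of the 3 ML1 diluent libraries on the horizontal axis and that of the 3 U937 diluent libraries on the vertical axis; blue and orange points were called higher and lower in U937 and grey points were not called. Named genes far from the diagonal include MPO, VAT1L and E2F7 on the ML1 side and CST7, LSP1 and CDKN2A on the U937 side, whereas SPI1 and CEBPA lie in the grey band.

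Granule transcripts were more abundant in ML1. The granule proteins are made in promyelocytes and stored for killing microbes. Summed over the 25 genes of the list, granule transcripts made up 10612 to 12871 CPM in the ML1 libraries and 3282 to 4164 CPM in those of U937. Of the 20 members tested, 5 were called higher and 10 lower in U937 (75% called, against 61.4% of all genes). The median log2 fold change was -0.57, against 0.01 for all genes tested.

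MPO encodes myeloperoxidase, the heme enzyme of the primary granule. It was at 834, 1057 and 953 CPM in ML1 and at 3.09, 2.52 and 1.92 CPM in U937 (log2 fold change -8.55, SE 0.33, adjusted p = 2.9e-13). The lines did not overlap, and U937 held only a trace of the transcript. In bulk RNA, a lower level in every cell and expression in fewer cells cannot be told apart. PRSS57, a serine protease of the same granules, was at 203, 221 and 209.9 CPM in ML1 and at 4.23, 1.89 and 2.25 CPM in U937 (-6.22, SE 0.29). Its libraries were again fully separated by line.

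The other proteases were lower in U937 but still abundant there. PRTN3 (proteinase 3) was at 2749, 2349 and 1839 CPM in ML1 and at 328, 363 and 309 CPM in U937 (-2.80, SE 0.22). CTSG (cathepsin G) was at 2686, 2559.5 and 2365 CPM in ML1 and at 686, 574 and 546 CPM in U937 (-2.08, SE 0.17). AZU1 (azurocidin, a protease relative without enzyme activity) was at 1052, 1085 and 1147 CPM in ML1 against 400.3, 231 and 293 CPM in U937 (-1.83, SE 0.22). None of these overlapped between the lines. ELANE (neutrophil elastase) differed least among them, with 3065, 2753 and 2122 CPM in ML1 and 1402, 1044 and 1078 CPM in U937 (-1.17, SE 0.21, adjusted p = 0.0001).

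Several of these genes lie in the same region of chromosome 19 (GRCh38, GENCODE v29). PRSS57 is at chr19:685546-695498 on the minus strand. Further along are AZU1 at chr19:825097-832018, PRTN3 at chr19:840960-848175, ELANE at chr19:851014-856247 and the complement protease CFD at chr19:859643-863630, all 4 on the plus strand. CFD also had a lower mean in U937, at 48.2 CPM against 403 CPM in ML1, and it is named here after its values were seen. Across this region the difference thus ranged from a log2 fold change of -6.22 for PRSS57, which lies apart from the other 4, to -1.17 for ELANE. CLEC11A, a growth factor gene also on chromosome 19, was at 1542, 1571 and 1324 CPM in ML1 and at 193, 182 and 171 CPM in U937 (-3.02, SE 0.18).

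The 250 bases upstream of the RefSeq start of 4 of these protease genes are shown because the genes differed together yet by unequal amounts. They come from the RefSeq promoter table (GRCh38.p14) and are written 5′ to 3′ along each gene's strand. They cover chr19:827587-827836 on the plus strand for AZU1, chr19:840749-840998 on the plus strand for PRTN3, chr19:695453-695702 on the minus strand for PRSS57 and chr14:24576251-24576500 on the minus strand for CTSG. RefSeq starts differ from the GENCODE positions given above. The stretch for AZU1 lies within its GENCODE interval, and those for PRTN3 and PRSS57 overlap the starts of theirs. Capitals mark a match, on either strand, to 1 of 3 motifs of blood cell factors: TTGCNNCAA for CEBP, AGAGGAAG for PU.1 and TGTGGT for RUNX (here all on the reverse strand, as CTTCCTCT and ACCACA).
AZU1: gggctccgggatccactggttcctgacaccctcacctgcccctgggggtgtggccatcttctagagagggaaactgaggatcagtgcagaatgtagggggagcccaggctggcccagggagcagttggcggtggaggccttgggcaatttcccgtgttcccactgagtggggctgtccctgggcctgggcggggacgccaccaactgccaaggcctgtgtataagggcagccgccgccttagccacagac
PRTN3: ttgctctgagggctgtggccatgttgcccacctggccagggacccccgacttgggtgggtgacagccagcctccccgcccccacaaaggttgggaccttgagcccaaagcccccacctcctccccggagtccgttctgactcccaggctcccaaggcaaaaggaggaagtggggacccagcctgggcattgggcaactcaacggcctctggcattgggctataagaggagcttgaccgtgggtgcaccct
PRSS57: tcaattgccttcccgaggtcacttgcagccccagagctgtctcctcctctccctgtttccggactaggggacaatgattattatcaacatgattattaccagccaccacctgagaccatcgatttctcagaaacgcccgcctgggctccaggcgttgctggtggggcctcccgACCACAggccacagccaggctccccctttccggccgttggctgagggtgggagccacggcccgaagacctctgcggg
CTSG: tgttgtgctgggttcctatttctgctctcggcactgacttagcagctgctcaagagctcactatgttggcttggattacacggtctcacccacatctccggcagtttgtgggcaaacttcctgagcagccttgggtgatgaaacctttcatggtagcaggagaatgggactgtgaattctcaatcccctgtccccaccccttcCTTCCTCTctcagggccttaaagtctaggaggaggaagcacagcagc
The upstream bases of AZU1 and PRTN3 held none of the 3 motifs, those of PRSS57 held 1 RUNX match and those of CTSG 1 PU.1 match. Over the whole 300-base windows (250 bases before to 50 after the start), a CEBP match lay in 1, a PU.1 match in 2 and a RUNX match in 3 of the 16 promoters found for the granule list, compared with 2.02%, 4.38% and 13.1% of all 27305 promoters in the table. A match is a run of letters and does not show that a factor binds.

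Not all granule genes followed. CST7 (cystatin F, an inhibitor of granule cysteine proteases) went the other way, at 1.65, 1.17 and 1.55 CPM in ML1 and at 808, 578 and 674 CPM in U937 (log2 fold change 8.89, SE 0.31). RNASE3, an eosinophil granule ribonuclease, was also higher in U937 (0.70, SE 0.16), while MS4A3, a marker of the granulocyte and monocyte progenitor named after its values were seen, was not called (52.8 against 51.5 CPM, ML1 first). Secondary granule genes were scarce in both lines: CAMP stayed under 1 CPM in every library, and LTF had no read in ML1 and at most 0.0858 CPM in U937. DEFA4, a defensin gene of the primary granules, had a lower mean in U937, as MPO had. It was at 9.13 CPM ± 1.43 in ML1 and 0.11 CPM ± 0.0541 in U937 (SD, n = 3 each).

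The monocyte and macrophage markers were divided. Of 31 tested, 14 were called higher and 10 lower in U937, with a median log2 fold change of 0.38. The share called was 77.4%, against 61.4% of all genes and 70% of the distinct genes of all lists. Their summed level was similar in the lines, at 1381 to 1649.9 CPM in ML1 and 1244 to 1371 CPM in U937. Neither of the 2 defining surface proteins was called higher in U937. CD14 was at 0.221, 0.142 and 0.195 CPM in ML1 and at 0.243, 0.198 and 0.278 CPM in U937, overlapping and not called (adjusted p = 0.49). CSF1R, the receptor for the macrophage growth factor CSF1, was at 17.2, 16.2 and 16.7 CPM in ML1 and at 5.29, 2.74 and 3.57 CPM in U937 (-2.11, SE 0.23).

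Markers higher in U937 included transcription factors and secreted or surface proteins of monocytes. CD4, which monocytes share with helper T cells, was at 1.38, 1.42 and 1.63 CPM in ML1 and at 156, 124 and 135 CPM in U937 (6.55, SE 0.23). FCN1 (ficolin 1, a secreted pattern recognition protein) was at 0.119, 0.0949 and 0.107 CPM in ML1 and at 15.3, 14.7 and 16.1 CPM in U937 (7.16, SE 0.24). KLF4, a factor of monocyte differentiation, was at 0, 0.0475 and 0.0888 CPM in ML1 and at 6.79, 6.89 and 5.5 CPM in U937 (7.09, SE 0.57). FCN1 and KLF4 were near the lower limit of detection in ML1, where CD4 was read at a low level. Each was clearly read in all U937 libraries.

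Markers higher in ML1 included receptors of blood monocytes. CCR2, the receptor that brings monocytes into tissue, was at 25.5, 32.6 and 29.9 CPM in ML1 and at 1.5, 2.39 and 1.63 CPM in U937 (-4.00, SE 0.24). LILRB4, an inhibitory receptor, was at 18.5, 23.2 and 25.5 CPM in ML1 and at 0.515, 0.216 and 0.15 CPM in U937 (-6.16, SE 0.30). The lines were fully separated for both. TLR2 (-2.49), ITGAM, the integrin subunit CD11b (-1.42), and LYZ, lysozyme (-1.52), were lower in U937 as well, and LYZ was at 641, 499 and 401 CPM in ML1 against 191, 187 and 160 CPM in U937.

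The NADPH oxidase, which makes superoxide in phagocytes, showed a split between its subunits. CYBB, the catalytic membrane subunit, was at 2.68, 1.6 and 1.92 CPM in ML1 and at 17.2, 18 and 17.1 CPM in U937 (3.09, SE 0.25). NCF1, a cytosolic subunit, was higher in ML1, at 67.2, 53.6 and 45 CPM against 3.03, 6.35 and 2.87 CPM (-3.76, SE 0.42); near-identical copies of NCF1 exist in the genome, so its reads are uncertain. Of the 18 oxidase and Fc receptor signalling genes, 12 were called higher and 3 lower in U937, with a median of 0.82. The share called was 83.3%, against 61.4% of all genes. FGR, a SRC family kinase of myeloid cells, had the smallest p among them, at 0.28 CPM ± 0.0624 in ML1 and 36 CPM ± 3.58 in U937 (SD, n = 3 each; 7.03, SE 0.24).

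**Figure D2:**
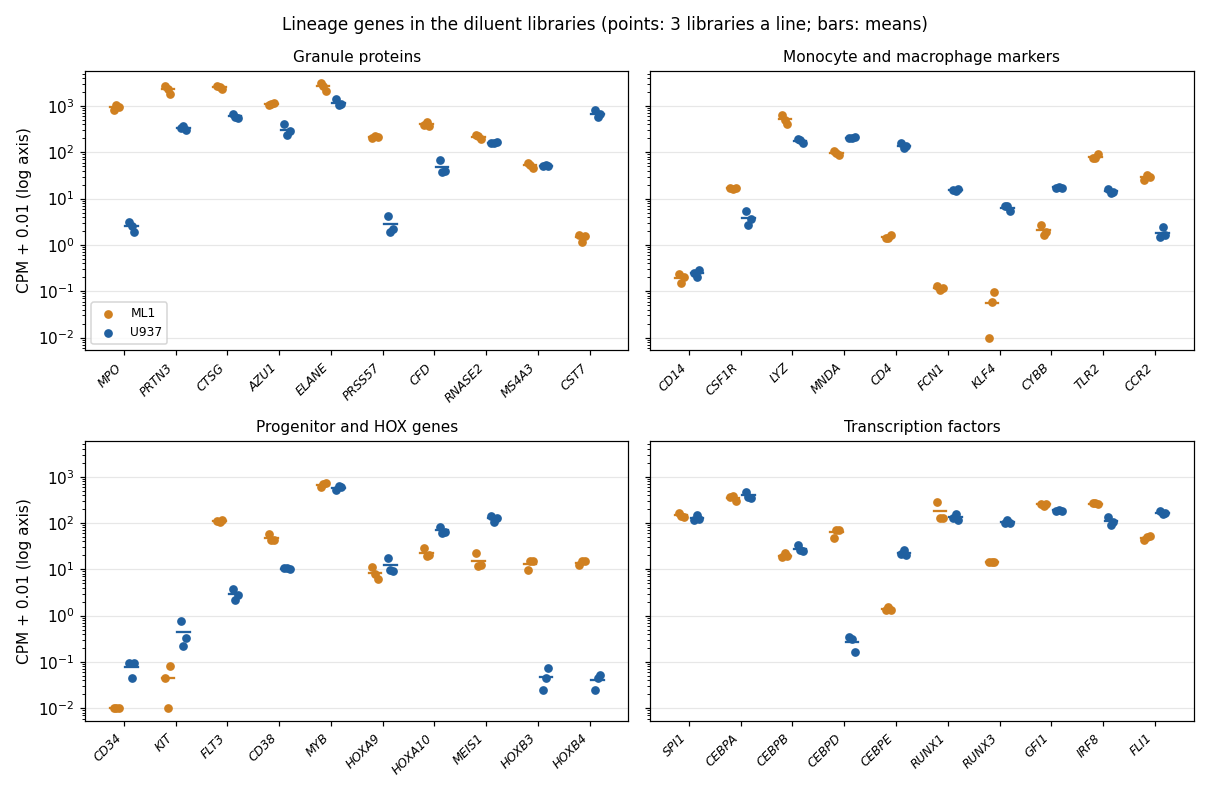
CPM (plus 0.01, log axis) of lineage genes in each diluent library, ML1 in orange and U937 in blue, with bars at the means of 3 libraries. MPO and PRSS57 have means of 948 and 211 CPM in ML1 and of 2.51 and 2.79 CPM in U937, CD14 overlaps at a low level, HOXB3 and HOXB4 are lost in U937, and SPI1 and CEBPA overlap.

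Progenitor genes also separated the lines one by one. FLT3, the receptor tyrosine kinase of early progenitors, was at 111, 106 and 117 CPM in ML1 and at 3.73, 2.16 and 2.72 CPM in U937 (-5.27, SE 0.24). CD38, which marks committed progenitors, was at 56.6, 42 and 42.7 CPM in ML1 and at 10.5, 10.5 and 10.1 CPM in U937 (-2.18, SE 0.15). Both were separated by line without overlap. The stem cell markers CD34 and KIT were under 1 CPM in every library: CD34 had no read in ML1 and between 0.036 and 0.0858 CPM in U937, at least 4.63-fold higher with a floor of 3 counts over the 3 ML1 libraries, and KIT was at 0.035 CPM ± 0.0355 in ML1 and 0.432 CPM ± 0.288 in U937 (SD, n = 3 each). HLF, a stem cell bZIP factor (5.70, SE 0.49), and EGFL7 (3.39, SE 0.24) were higher in U937. Over the list 10 of 20 members were called higher and 5 lower (75% called, against 61.4% of all genes), with a median of 1.05.

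HOXB3 and HOXB4 were higher in ML1. HOXB4 was at 12.1, 14.9 and 14.9 CPM in ML1 and at 0.0143, 0.036 and 0.0428 CPM in U937 (-8.81, SE 0.45). HOXB3 was at 9.64, 15.3 and 15 CPM in ML1 and at 0.0143, 0.036 and 0.0641 CPM in U937 (-8.49, SE 0.51). These 2 genes of chromosome 17 overlap (HOXB3 at chr17:48548870-48604912, HOXB4 at chr17:48575513-48580111, both on the minus strand) and share exon bases, so their reads are not fully independent. In the HOXA cluster HOXA9 was at 11.2, 7.88 and 6.27 CPM in ML1 and at 17.9, 9.83 and 9.37 CPM in U937, overlapping and not called (adjusted p = 0.055).

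HOXA10 (1.60, SE 0.17) and HOXA11 (2.03, SE 0.18) were higher in U937, although antisense genes overlap 16.4% and 31.1% of their exon bases. MEIS1, the cofactor that binds DNA with HOXA9, was at 22.1, 11.5 and 12.3 CPM in ML1 and at 144, 107 and 128 CPM in U937 (3.05, SE 0.25). Its lowest U937 library lay well above the highest of ML1. Of the 18 HOX, MEIS and PBX genes tested, 9 were called higher and 5 lower in U937 (77.8% called, against 61.4% of all genes).

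The master factors of the myeloid lineage were abundant in both lines and were not called. SPI1 (PU.1) was at 161, 144 and 135 CPM in ML1 and at 118, 146 and 123 CPM in U937 (-0.19, SE 0.12, adjusted p = 0.21). CEBPA was at 372, 378 and 304 CPM in ML1 and at 475, 366 and 351 CPM in U937 (0.18, SE 0.18, adjusted p = 0.41). The libraries of the lines overlapped for both. Relatives of CEBPA differed: CEBPD was at 46.5, 72 and 69.7 CPM in ML1 and at 0.329, 0.306 and 0.15 CPM in U937 (-7.85, SE 0.42), whereas CEBPE, a factor of late granulocyte maturation, was at 1.31, 1.52 and 1.31 CPM in ML1 and at 21.9, 26.7 and 20.2 CPM in U937 (4.05, SE 0.28).

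Among the other factors IRF8, which directs monocyte and dendritic cell fate, was lower in U937 (109.8 against 263 CPM, -1.26), and RUNX3 (105 against 14.4 CPM, 2.87) and FLI1 (168 against 48.3 CPM, 1.80) were higher. IKZF2 (Helios) was at 5.3, 4.71 and 5.99 CPM in ML1 and had no read in U937, at least 301-fold lower there with a floor of 3 counts over the 3 libraries. Of 38 blood cell transcription factors tested, 15 were called higher and 9 lower (63.2% called), a share near that of all genes.

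Genes of other blood lineages, most of them low in both lines, were more often called higher in U937 than lower. Of 11 B cell genes tested 9 were called higher and 2 lower, and of 12 T and NK cell genes 7 were called higher and 0 lower. Of all genes tested, 32% were called higher and 29.4% lower. The low-count filter used all groups, so a gene nearly silent in ML1 could be tested through U937 libraries alone. Such a gene could hardly be called lower, so these counts are partly set by the filter. PAX5, the factor that commits cells to the B lineage, was at 0.017, 0.0475 and 0.16 CPM in ML1 and at 12.5, 27.8 and 19.9 CPM in U937 (8.11, SE 0.65). It was read in all 3 U937 libraries, while MS4A1, VPREB1 and CR2 had no read in either line and the summed level of the 18 B cell genes was 53.1 to 55.2 CPM in U937 and 11.5 to 12.6 CPM in ML1. CD22 (6.42, SE 0.54) and BLNK (4.79, SE 0.56) were higher in U937, while CD79A was lower (2.09 against 4.2 CPM).

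The T and NK list summed to 183 to 200 CPM in U937 and 19.7 to 20.9 CPM in ML1, most of which was NKG7, a cytotoxic granule membrane protein that was at 182, 169 and 169.5 CPM in U937 and at 12.2, 14.1 and 14 CPM in ML1 (3.69, SE 0.17). GATA3 was at 1.53 CPM ± 0.0992 in U937 and 0.0257 CPM ± 0.0267 in ML1 (SD, n = 3 each). GZMA and CD2 had no read in ML1 and stayed under 1 CPM in U937. The part of other cells in these values was not tested, and 7 of the 24 genes of this list, among them CD3D, CD3E, CD3G and LCK, had no read in any of the 6 libraries.

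Erythroid and megakaryocyte genes gave 3 calls in the direction of U937 and 2 against among 11 tested, and 8 of the 22, globins included, had no read. KLF1, the erythroid factor, was at 3.69 CPM ± 0.504 in U937 and 0.0847 CPM ± 0.0632 in ML1 (SD, n = 3 each). Of 8 epithelial, stromal and endothelial genes tested, 3 were called each way. The keratins KRT8 (2.23 against 0.227 CPM, ML1 first) and KRT18 (2.47 against 0.00713 CPM) were lower in U937, and the list summed to at most 7.14 CPM in any library.

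CDKN1A and MDM2, both induced by DNA damage, were lower in U937. CDKN1A (p21), which inhibits cyclin-dependent kinases, was at 40.9, 78.1 and 65 CPM in ML1 and at 7.42, 8.1 and 6.67 CPM in U937 (-3.05, SE 0.30). MDM2, a ubiquitin ligase, was at 132, 133 and 132 CPM in ML1 and at 45.9, 55.9 and 55.4 CPM in U937 (-1.34, SE 0.23). Both genes were separated by line.

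Other damage-inducible genes varied. EDA2R, a receptor of the TNF receptor family, was at 5.6, 8.11 and 8.97 CPM in ML1 and at 0.0286, 0.09 and 0 CPM in U937 (-7.47, SE 0.41). PHLDA3, an AKT inhibitor, was at 10.6, 13.7 and 9.66 CPM against 0.272, 0.162 and 0.385 CPM (-5.39, SE 0.41). These 2 were nearly silent in U937. ZMAT3 (-2.16) and BAX, the apoptosis effector (-0.75), were lower too, but CYFIP2 (3.68, SE 0.27), PERP (3.30, SE 0.34), CCNG1 (0.76, SE 0.18) and TIGAR (0.43, SE 0.12) were higher in U937. In all, 11 of the 28 genes of this list tested were called lower and 4 higher (53.6% called), and the median was -0.35.

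CDKN2A, the locus of the CDK4 and CDK6 inhibitor p16 and of ARF, an inhibitor of MDM2, went the other way. It was at 0.679, 0.629 and 0.533 CPM in ML1 and at 83, 65.8 and 67.8 CPM in U937 (6.87, SE 0.17, adjusted p = 2.1e-15). Every U937 library lay far above every ML1 library. The gene lies at chr9:21967753-21995301 on the minus strand, between MTAP (chr9:21802543-21937651, plus strand), a methionine salvage enzyme, and CDKN2B (chr9:22002903-22009363, minus strand), which encodes p15. MTAP was at 28.3 CPM ± 1.2 in ML1 and 78.2 CPM ± 8.63 in U937 (1.47, SE 0.13), and CDKN2B was at 0.714 CPM ± 0.323 and 2.65 CPM ± 0.256 (1.90, SE 0.33; SD, n = 3 each).

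Genes of the checkpoint that prexasertib targets were read well in both lines. CHEK1, which encodes CHK1, was at 41.9, 45.2 and 44 CPM in ML1 and at 63.9, 64 and 59.8 CPM in U937 (0.52, SE 0.14, adjusted p = 0.003). CDK2, a kinase held back by this checkpoint, was at 162, 184 and 185 CPM in ML1 and at 59.2, 62.6 and 60.2 CPM in U937 (-1.54, SE 0.13). The lines thus differed in opposite directions for these 2 genes, with no overlap. E2F1 (-1.31, SE 0.16) was lower in U937, whereas CDKN1B, which encodes the CDK inhibitor p27, was higher (1.44, SE 0.13). Of 28 genes of this list, 5 were called higher and 14 lower (67.9% called, against 61.4% of all genes), with a median of -0.28.

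**Figure D3:**
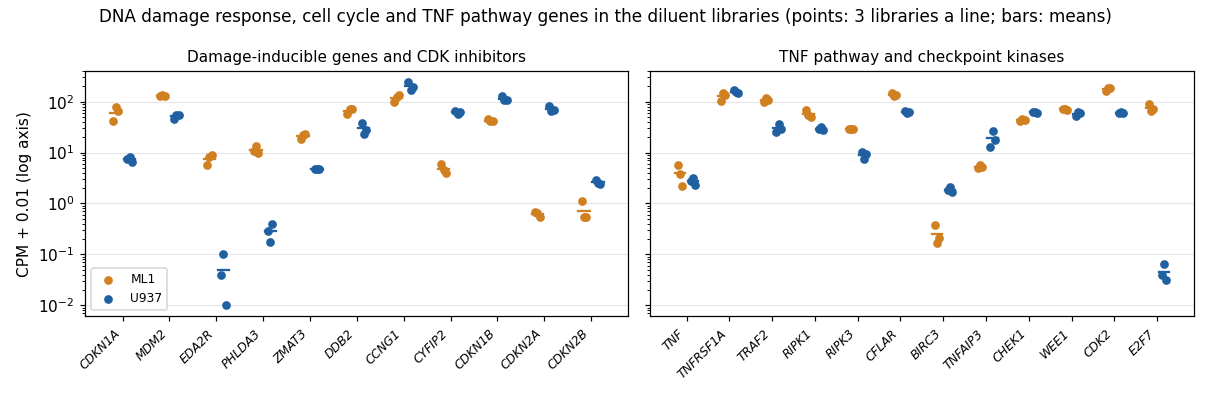
CPM (plus 0.01, log axis) of damage-inducible and CDK inhibitor genes (left) and of TNF pathway and checkpoint genes (right) in each diluent library, ML1 in orange and U937 in blue, with bars at the means of 3 libraries. CDKN1A, EDA2R and PHLDA3 are lower in U937, CDKN2A is higher, and the TNF libraries of the lines overlap.

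Replication and mitosis genes were called at a share near or below that of all genes (61.4%), and few differed by at least 2-fold. A call of that size was reached by 1 replication gene higher and 2 lower, and by 0 mitosis genes higher and 1 lower. Of all genes 34.5% reached it. Of 29 replication genes 4 were called higher and 11 lower in U937 (51.7% called) with a median of -0.16, and of 24 mitosis genes 5 were called higher and 9 lower (58.3% called) with a median of -0.11. MCM6, a subunit of the replicative helicase, was higher in U937 (757 against 304 CPM, 1.32), and TK1, thymidine kinase, was lower (70 against 271 CPM, -1.95), as was UBE2C, the ubiquitin-conjugating enzyme of the anaphase-promoting complex (15.3 against 83.9 CPM, -2.45). E2F7, a repressor of E2F target genes, stood out from both lists. It was at 88.6, 64.4 and 72.7 CPM in ML1 and at 0.0286, 0.054 and 0.0214 CPM in U937 (-11.00, SE 0.40).

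The study's design text names TNF transcription factors as its interest, and the TNF level with diluent was not called between the lines. TNF was at 5.77, 3.83 and 2.2 CPM in ML1 and at 2.73, 3.11 and 2.27 CPM in U937 (-0.54, SE 0.40, adjusted p = 0.26). TNFRSF1A, the main TNF receptor, was at 104, 148 and 136 CPM in ML1 and at 171, 155 and 150.4 CPM in U937, without overlap but not called (0.30, SE 0.18, adjusted p = 0.18). In the TNF and death receptor list, which includes TNF and its receptors, more members were called lower in U937 than higher. Of the 29 tested 3 were called higher and 15 lower (62.1% called, against 61.4% of all genes), with a median of -0.48.

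TRAF2, the adaptor of TNF receptor complexes, was at 98.6, 116 and 109 CPM in ML1 and at 25.5, 36 and 29.1 CPM in U937 (-1.84, SE 0.16). RIPK3, the kinase of necroptosis, was at 28.8, 28.8 and 28.9 CPM against 10.4, 7.33 and 9.26 CPM (-1.68, SE 0.17). CFLAR, which encodes the caspase-8 inhibitor FLIP (-1.13, SE 0.12), and RNF31, a subunit of the linear ubiquitin ligase (-1.08, SE 0.10), were lower too. The 3 genes higher in U937 were TNFAIP3 (A20, 1.86, SE 0.30), BIRC3 (2.98, SE 0.41) and TRAF3 (0.74, SE 0.18), the first 2 of which are NF-kB targets.

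AP-1, ATF and NF-kB factors were split evenly, with 12 of 29 called higher and 13 lower (86.2% called). FOSB (6.3 against 0.61 CPM, 3.37), BATF3 (17.5 against 0.424 CPM, 5.35), JUN (27.4 against 10.3 CPM, 1.41) and the NF-kB subunits REL (1.88, SE 0.22), RELB (1.98, SE 0.35) and NFKB2 (1.52, SE 0.22) were higher in U937. ATF5 (43.2 against 179.8 CPM, -2.06), ATF6 (-1.66, SE 0.15) and MAFG (-1.40, SE 0.14) were lower. In the BCL2 family 3 of 16 were called higher and 6 lower (56.2% called). BCL2A1, an antiapoptotic member and NF-kB target, was at 0.34, 0.237 and 0.426 CPM in ML1 and at 15.8, 16.2 and 17.3 CPM in U937 (5.64, SE 0.25).

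More antigen presentation genes were called lower in U937 than higher. Of 17 MHC class I genes 3 were called higher and 11 lower (82.4% called, median -0.97). The summed level of the class I list did not follow these counts, at 4188 to 4451 CPM in ML1 and 4253 to 4851 CPM in U937, and its member B2M, the light chain of class I molecules, was called higher in U937 (0.37, adjusted p = 0.0072). Of 11 class II genes 3 were called higher and 8 lower (median -1.44, or -1.02 with genes at 0 reads set to their bound), and the list summed to 478 to 509 CPM in ML1 and 155 to 213 CPM in U937. CD74, the class II invariant chain, was at 100, 129 and 123 CPM in ML1 and at 28.4, 19.3 and 22.8 CPM in U937 (-2.32, SE 0.20). HLA-DRA was at 3.11, 5.53 and 5.49 CPM in ML1 and at 0.129, 0.108 and 0.235 CPM in U937 (-4.94, SE 0.38). The lines did not overlap for either gene, and HLA-DRA was low in both. HLA-DRB1 went the other way (3.64, SE 0.39), and since HLA alleles differ from the reference genome and from each other, reads of single HLA genes are uncertain.

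ERAP2, a peptide-trimming enzyme, was at 74.6, 64.8 and 68.9 CPM in ML1 and at 7.5, 7.04 and 7.46 CPM in U937 (-3.24, SE 0.19). The immunoproteasome subunits PSMB9 (-2.10, SE 0.18) and PSMB10 (-2.09, SE 0.15) were lower as well. Interferon-stimulated genes gave 9 calls higher and 12 lower among 35 (60% called), near the share of all genes, and members of 1 family differed in direction: IFITM3 was at 0.894 CPM ± 0.0726 in U937 and 12.6 CPM ± 1.17 in ML1, and IFITM1 was at 10.2 CPM ± 1.05 and 0.3 CPM ± 0.139 (SD, n = 3 each). The IFITM genes are alike in sequence, and IFITM1 shares 32.5% of its exon bases with IFITM2.

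S100 and annexin genes, which encode calcium-binding proteins, were mostly higher in U937. Of 16 tested, 13 were called higher and 1 lower (87.5% called, against 61.4% of all genes), with a median of 1.42. Their summed level was 2124 to 2392 CPM in U937 and 1087 to 1178 CPM in ML1. ANXA5, the phosphatidylserine-binding annexin used to stain apoptotic cells, was at 0.136, 0.403 and 0.231 CPM in ML1 and at 113, 107 and 105 CPM in U937 (8.63, SE 0.21, adjusted p = 1.6e-15). S100P was at 0.238, 0.166 and 0.16 CPM in ML1 and at 75.8, 53.2 and 68.4 CPM in U937 (8.45, SE 0.30). Both were close to silent in ML1. S100A10 was the 1 member called lower (-0.72, SE 0.14).

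S100A8 and S100A9, the subunits of calprotectin and abundant proteins of mature neutrophils and monocytes, are named after their values were seen. S100A9 was at 0.136, 0.107 and 0.0355 CPM in ML1 and at 5.71, 12.9 and 9.26 CPM in U937 (6.59, SE 0.61), and S100A8 was at 0.0679, 0.0356 and 0.0355 CPM against 0.458, 0.81 and 0.855 CPM (3.89, SE 0.72). The upstream bases of this pair, which is co-expressed in mature cells, are shown as above, with the same motifs in capitals, for chr1:153391189-153391438 on the minus strand and chr1:153357604-153357853 on the plus strand (GRCh38.p14).
S100A8: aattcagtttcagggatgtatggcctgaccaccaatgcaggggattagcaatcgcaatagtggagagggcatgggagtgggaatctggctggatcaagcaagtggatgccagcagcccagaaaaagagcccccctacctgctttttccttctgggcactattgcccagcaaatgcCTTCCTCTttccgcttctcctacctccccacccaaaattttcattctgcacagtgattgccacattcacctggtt
S100A9: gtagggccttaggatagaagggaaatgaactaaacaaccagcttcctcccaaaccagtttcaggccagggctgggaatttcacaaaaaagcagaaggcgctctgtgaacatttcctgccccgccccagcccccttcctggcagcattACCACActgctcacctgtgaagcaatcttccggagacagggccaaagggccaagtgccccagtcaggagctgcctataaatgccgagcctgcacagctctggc
A PU.1 match lay upstream of S100A8 and a RUNX match upstream of S100A9. Over the 17 promoters found for the S100 and annexin list, 1 held a CEBP, 2 a PU.1 and 3 a RUNX match.

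Surface and signalling genes gave further differences. Of 23 adhesion genes 13 were called higher and 5 lower (78.3% called, against 61.4% of all genes), with a median of 0.66. ITGA6, an integrin subunit that binds laminin, was at 11.5, 10.4 and 9.75 CPM in ML1 and at 274, 215 and 222 CPM in U937 (4.49, SE 0.19), while ITGAL, the LFA-1 subunit CD11a, was at 529, 466 and 470.2 CPM in ML1 and at 36.1, 45.4 and 36 CPM in U937 (-3.64, SE 0.20). ICAM1, a ligand of LFA-1, was higher in U937 (51.8 against 2.21 CPM, 4.55), so the RNA of this subunit and of this ligand differed in opposite directions. Of 27 cytokine and chemokine receptors 11 were called higher and 8 lower (70.4% called). That share was near the 70% over the distinct genes of all lists tested. IL10RA (3.87, SE 0.28), IL4R (1.76, SE 0.15) and TGFBR1 (1.79, SE 0.13) were higher in U937.

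Eicosanoid genes, which encode the enzymes that turn arachidonic acid into lipid mediators, were called in both directions. Of the 14 tested, 5 were called higher and 6 lower in U937 (78.6% called, against 61.4% of all genes). TBXAS1, thromboxane synthase, was at 0.577, 0.712 and 0.551 CPM in ML1 and at 60, 65.4 and 61.2 CPM in U937 (6.64, SE 0.22). PTGS1, cyclooxygenase 1, was at 3.8, 4.46 and 4 CPM in ML1 and at 142, 130.4 and 152 CPM in U937 (5.11, SE 0.19). LTC4S, leukotriene C4 synthase, was at 52.5, 52.5 and 47 CPM in ML1 and at 4.09, 3.22 and 3.78 CPM in U937 (-3.77, SE 0.17). None of these 3 enzymes overlapped between the lines.

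Single metabolic enzymes differed widely in both directions. PSAT1, the aminotransferase of serine synthesis, was at 0.577, 0.356 and 0.302 CPM in ML1 and at 228, 169 and 210.4 CPM in U937 (8.95, SE 0.34). ALDH1L2, the mitochondrial enzyme of the folate cycle, was at 92.8, 82.9 and 114 CPM in ML1 and at 0.586, 0.342 and 0.962 CPM in U937 (-7.28, SE 0.32). The serine and ATF4 list had 6 members called higher and 5 lower of 18 (61.1% called, median 0.13). In glycolysis, 7 were higher and 5 lower of 20 (60% called, median 0.04).

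HK3, a hexokinase of myeloid cells (6.05, SE 0.31), and SLC2A3, a glucose transporter (5.92, SE 0.32), were higher in U937, whereas PFKM (-3.80, SE 0.19) and ALDOC (-3.97, SE 0.48) were lower. ALDOC also varied within ML1, at 9.8, 44.7 and 57.5 CPM. Of 20 cholesterol genes 8 were called higher and 6 lower (70% called, median 0.30). The list summed to 3041 to 4126 CPM in ML1 and 4414 to 5039.6 CPM in U937. HSD17B7 was at 21.4, 34.6 and 34 CPM in ML1 and at 0, 0.09 and 0.0855 CPM in U937 (-9.10, SE 0.50), and its pseudogene HSD17B7P2 was also among the genes lowest in U937, with which it may share reads.

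**Figure D4:**
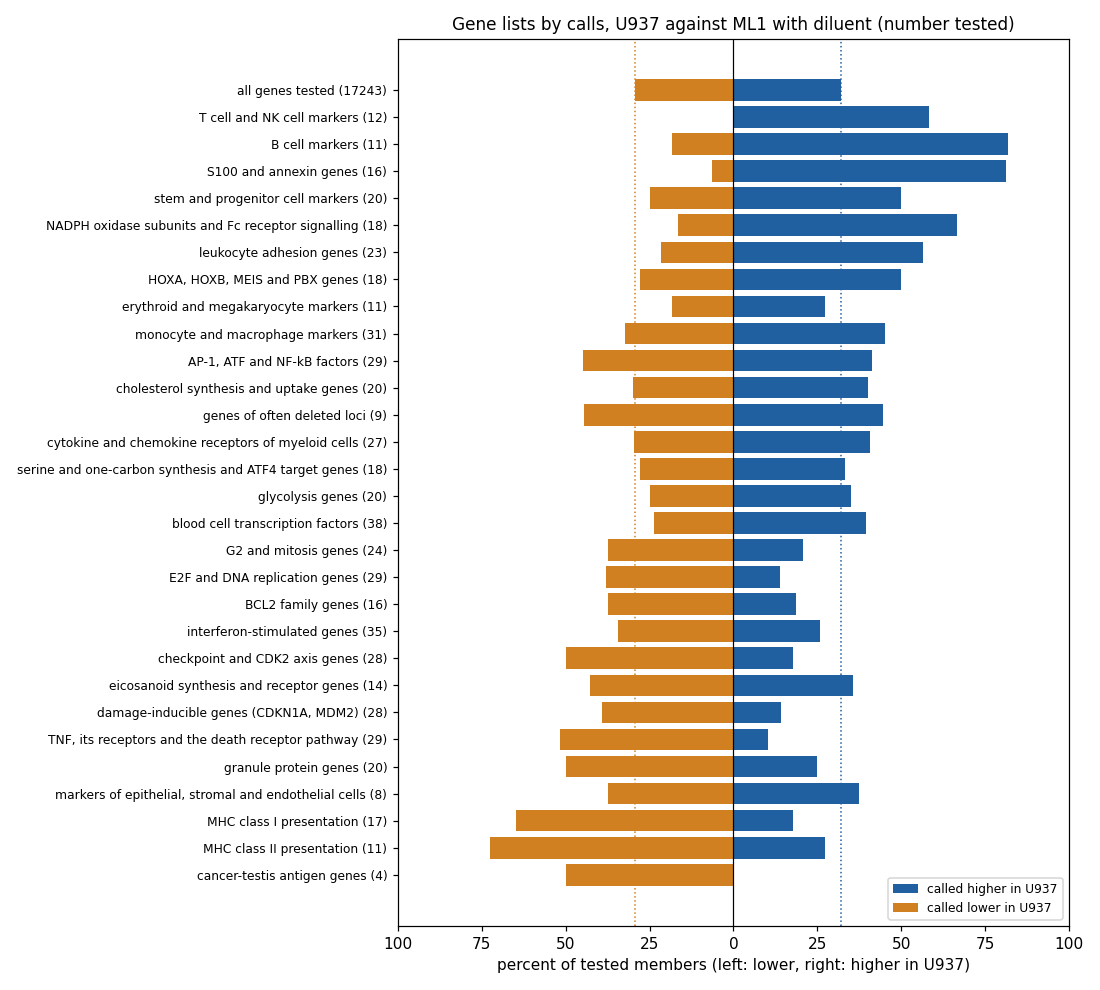
Percent of the tested members of each gene list called higher (blue, right) and lower (orange, left) in U937, ordered by median log2 fold change, with the number tested in parentheses and dotted lines at the shares of all 17243 genes (32% and 29.4%). T and NK, B cell and S100 and annexin genes extend far to the right, and both MHC lists and the granule list to the left.

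The largest differences were between a readable level in one line and almost none in the other. In the direction of U937, the 15 genes with the largest log2 fold change among called genes with a mean of at least 5 CPM and no overlap were SRPX, RNF165, HDGFRP3, CD276, IMPACT, CDYL2, ABLIM1, DOCK9, KCNQ5, LSP1, MCTP2, TSPAN18, GNG12, ADGRA3 and CYP2S1. SRPX, on the X chromosome, was at 11.6, 9.41 and 11.1 CPM in U937 and had no read in ML1, at least 716-fold higher. LSP1, a leukocyte actin-binding protein, was at 81.4, 79.6 and 77.2 CPM in U937 and at 0.0509, 0.131 and 0.16 CPM in ML1 (9.41, SE 0.28). CD276 (B7-H3, an immune checkpoint ligand) was at 24.5, 28.8 and 23.9 CPM against at most 0.0355 CPM in ML1.

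In the direction of ML1 they were ZC3HAV1L, TRIQK, CYP4F29P, ZNF615, ZNF521, C5orf42, E2F7, ZNF232, ZNF441, LRP6, HSD17B7P2, ZNF765, CYP1B1, VAT1L and SPR. ZC3HAV1L was at 24.9, 20 and 26.4 CPM in ML1 and had no read in U937, at least 1333-fold lower there. VAT1L was the most abundant of them, at 327, 311 and 318 CPM in ML1 and 0.186, 0.252 and 0.385 CPM in U937 (-10.23, SE 0.22, adjusted p = 6.6e-16). LRP6, the WNT co-receptor, was at 51.2, 37.2 and 45.3 CPM in ML1 and at most 0.054 CPM in U937, and SPR, an enzyme of tetrahydrobiopterin synthesis, was at 30.7, 33.2 and 26 CPM against at most 0.0286 CPM. ZNF521, a zinc finger factor of progenitors, was at 21.3, 22.4 and 23.2 CPM in ML1, and a single read was found in the U937 libraries (ratio 3846, exact 95% counting interval 689.9 to 151932). Floors and intervals use counts pooled over the libraries of a line, so they cover counting error only and leave out the spread between libraries. The reads also carry no molecular identifiers.

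Presence and absence were counted without a test. Of 13099 genes that reached at least 1 CPM in all 3 diluent libraries of a line, 135 (1.03%) were present in ML1 and at most 0.05 CPM in every U937 library, and 117 (0.893%) were present in U937 and at most 0.05 CPM in every ML1 library. MGMT, which repairs alkylated guanine in DNA, was on the ML1 side at 24 CPM against 0.0239 CPM, and SPRY4, a feedback inhibitor of MAP kinase signalling, was on the U937 side at 12.4 CPM against 0.0158 CPM; both are named after their values were seen.

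Among abundant genes the lines differed by smaller factors. The 10 genes of highest mean level called at least 2-fold higher in U937 included CTSD, the lysosomal protease cathepsin D, at 1451, 1474 and 1455 CPM against 211, 182 and 151 CPM in ML1 (3.01, SE 0.20). They also included GLO1, the methylglyoxal-detoxifying enzyme, at 1694, 1603 and 1846 CPM against 267, 269 and 256 CPM (2.70, SE 0.19), and the chaperones HSPD1 (1.85, SE 0.18), HSP90AB1 (1.52, SE 0.15) and HSPA8 (1.28, SE 0.38). The HSPA8 call was lost without U937 replicate 2 (0.93, adjusted p = 0.052, the highest of 14 alternatives without a fold threshold, which started at 2.7e-05). FLNA, the actin crosslinker filamin A (1.76, SE 0.12), TMSB4X (1.17, SE 0.16), RPL10A (1.33, SE 0.16) and NPM1 (1.10, SE 0.15) completed them, with RNA18S5.

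RNA18S5, the 18S ribosomal RNA, was at 179, 608 and 328 CPM in ML1 and at 624, 670.3 and 6598 CPM in U937. The call rested on 1 library: without U937 replicate 3 the log2 fold change was 0.81 (adjusted p = 0.38), and over 13 alternatives without a fold threshold the adjusted p ran from 0.023 to 0.38. On the ML1 side, beside the granule genes, the abundant genes included HMGB1, a chromatin protein (2465 against 961 CPM, -1.36), SRRM2 (-1.08), DDX17 (-1.06) and KMT2D, a histone methyltransferase (-1.04). Several of these genes, HMGB1, HSPA8, RPL10A, TMSB4X and NPM1 among them, have processed pseudogenes that can take or give reads.

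Gene position was not used to choose the libraries, and the differences were uneven along the genome. Median log2 fold changes per autosome ran from -0.59 on chromosome 12 to 0.56 on chromosome 18. On chromosome 18, 120 of 220 genes were called higher in U937 and 30 lower, and on chromosome 12, 140 of 843 were called higher and 455 lower. Chromosomes 2 (0.49), 21 (0.42) and 1 (0.31) were also shifted towards U937, and chromosomes 13 (-0.41), 5 (-0.35) and 17 (-0.33) towards ML1. In each of these 8 the chromosome's median level in every U937 library lay on one side of that in every ML1 library. That separation was not particular to these 8: it held on every autosome except chromosome 19, also on chromosome 3 with its median of 0.03.

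**Figure D5:**
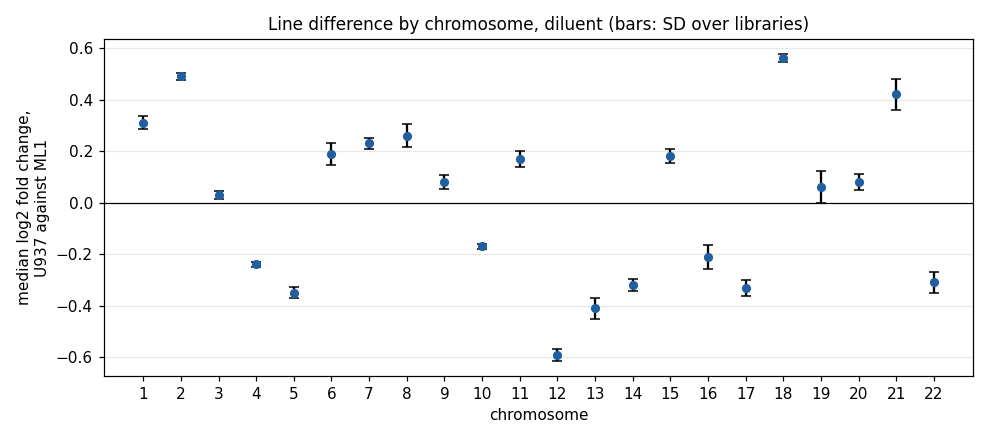
Median log2 fold change (U937 against ML1, diluent) of the tested genes on each autosome. Each bar is the square root of the ML1 variance plus the U937 variance of the chromosome's median level per library. Chromosome 18 is the highest at 0.56 and chromosome 12 the lowest at -0.59.

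Within chromosomes the shift was even in some and uneven in others. Over windows of 20 Mb with at least 30 tested genes, all medians of chromosome 12 lay between -0.69 and -0.49 and those of chromosome 18 between 0.39 and 0.72, whereas those of chromosome 6 ran from -0.52 to 1.59. The highest medians of all windows were 1.59 at chr6:160000001-180000000 (33 genes), 1.13 at chr1:20000001-40000000 (254 genes) and 1.08 at chr6:140000001-160000000. The lowest were -0.78 at chr13:20000001-40000000 (86 genes), -0.69 at chr12:40000001-60000000 (248 genes) and -0.67 at chr22:40000001-60000000 (121 genes). DNA copy number was not measured in these files, and its part in these shifts was not tested.

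The libraries treated with 10 nM prexasertib give the same contrast in samples that share none with the diluent comparison. There 11463 genes (66.5%) were called between the lines. Of the 10586 genes called with diluent, 7903 (74.7%) were called with the same sign, 536 (5.06%) with the opposite sign, and 2147 (20.3%) were not called. Of the 5957 called and at least 2-fold with diluent, 81.5% kept sign and call and 3.39% were called with the opposite sign. The order of the lines for MPO (-6.79, SE 0.31), CDKN2A (4.52, SE 0.15) and MEIS1 (2.08, SE 0.24) was the same after the drug as before it.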

How the data were processed

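RNA-seq was analysed for 15 libraries (5 groups of 3), grouped by the labels' cell line and agent, and no library was left out. The values are raw counts per gene symbol as the authors deposited them, without normalization. Per the submitters' processing notes, the tools were featureCounts 1.4.6 (Subread), Bowtie2 2.2.6 and TopHat2 2.0.14 with the hg38 build. The sources used here do not give the annotation or the strand setting. The TruSeq v2 kit named in the labels does not mark strand, so reads of a gene and its antisense partner cannot be told apart.

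The analysis ran in edgeR 4.0.16 under R 4.3.3. Of 26485 symbols, 17243 passed filterByExpr. After TMM scaling, all 15 libraries entered 1 robust quasi-likelihood model of group means (10 residual degrees of freedom). Each contrast was adjusted by Benjamini-Hochberg over all genes tested and called at an adjusted p under 0.05. Adjusted p-values in the text are from edgeR's quasi-likelihood test, and SE is the log2 fold change divided by the square root of F. CPM (counts per 1000000) and its SD (n = 3) use TMM-scaled totals. Promoters came from RefSeq (GRCh38.p14), and 23889 symbols (90.2%) were matched to GENCODE v29 for positions. Of 282 named genes with coordinates, 19 share over 10% of their exon bases with another gene.

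The libraries, the 29 gene lists (651 distinct genes in the file) and the naming rule were chosen with earlier results of these data known. Named were the 15 largest changes each way (mean of at least 5 CPM, no overlap), 18 defining genes, up to 5 members of each list by p, the 10 most abundant genes changed at least 2-fold each way, and members against the direction of their list, these last and a few others after their values were seen. A few genes within this rule are left out of the text. On simulated counts (17003 genes), 18%, 82%, 96% and 100% of 50 genes each changed by 0.5, 1, 2 and 3 on the log2 scale were recovered, and 7 unchanged genes were called. The changed genes were drawn from those of at least 1 CPM, so the rates do not cover genes below that level. Few genes were changed in the simulation, whereas most genes were called in the data. Alternatives included DESeq2 1.42.0, other scalings and filters, a threshold on the fold change, a replicate block and leaving out each library.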

Additional observations from a re-analysis of the deposited data

Results flagged for a closer look

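Of the 17 defining genes reported here, 13 had a line difference that changed with treatment by the test of the difference itself (edgeR's interaction contrast, adjusted p under 0.05), a test that 24.7% of all genes passed. Values here are the log2 line difference (U937 minus ML1) with prexasertib minus that with diluent. The difference moved towards ML1 for MDM2 (-3.38, SE 0.33), TNF (-3.05, SE 0.55), CSF1R (-2.75, SE 0.32), HLA-DRA (-2.67, SE 0.58), CD14 (-2.46, SE 0.57), CDKN2A (-2.35, SE 0.21), CDKN1A (-1.45, SE 0.39), HOXA9 (-1.30, SE 0.34), MEIS1 (-0.97, SE 0.32) and SPI1 (-0.97, SE 0.18). It moved towards U937 for MPO (1.76, SE 0.36), CHEK1 (1.37, SE 0.19) and CDK2 (1.01, SE 0.17).

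The levels with prexasertib show where this came about. TNF was at 165, 262 and 167 CPM in ML1 and at 14.7, 24.6 and 10.2 CPM in U937 with prexasertib, so a gene that was not called with diluent was separated by line with the drug (-3.58, SE 0.40). CD14 was at 5.11, 7.67 and 3.13 CPM in ML1 and at 1.03, 1.9 and 0.828 CPM in U937 (-2.08, SE 0.35), and SPI1 at 289, 363 and 327 CPM against 131, 152 and 157 CPM (-1.16, SE 0.13); both were not called with diluent. HOXA9, also not called with diluent, was higher in ML1 with prexasertib (-0.75, SE 0.24, adjusted p = 0.01). For MDM2 the ML1 libraries were spread, at 2372, 842 and 1520.5 CPM, and those of U937 were at 61.5, 62.4 and 56.2 CPM. MPO, CDKN1A, CDKN2A, MEIS1, CSF1R, MDM2, HLA-DRA, CHEK1 and CDK2 were called with the same sign under both treatments.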

How the results depend on the processing

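The diluent counts (5510 higher, 5076 lower) stayed within 1.5 times under DESeq2 (5732 and 5181), upper-quartile factors (5300 and 5370), no low-count filter (5525 and 4971), the stricter filter (4017 and 4044), the fit of the 6 libraries compared (5402 and 5256) and thinning (5389 and 5052). Testing against an absolute log2 fold change of 1 left 2486 and 1660, with prexasertib 2875 and 2157, and over the distinct list genes 111 and 82. With a replicate block the diluent calls were 5745 and 5389; same-numbered libraries of the lines deviated together at -0.0543, 0.0262 and 0.265, not all over 0.1, and ML1 replicate 1 and U937 replicates 1 and 2 did not correlate best with their own number, so the numbers were not taken as pairs. Genes present in ML1 and nearly absent in U937 were 58 with presence at 5 CPM and 48 with absence at 0 counts, those of U937 29 and 26. Chromosome medians for 12, 13, 5, 17, 1, 2 and 18 were -0.64, -0.45, -0.39, -0.37, 0.26, 0.44 and 0.52 with upper-quartile factors, and those of 12, 1, 21, 2 and 18 were -0.66, 0.28, 0.26, 0.51 and 0.54 with the stricter filter; none changed sign. Of 277 named genes with a call, 21 lost it under an alternative other than that test, 90 under it, and 0 reversed. Among the 21 were PSAP, CD86, CYBA, VDR, JUNB and TAP1, beside HSPA8 and RNA18S5. Precision is limited by 3 libraries a line, and genes under 0.1 CPM rest on a few reads.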

Other observations

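Zinc finger genes named ZNF were noticed after the values were seen, because 5 of the 15 genes with the largest differences on the ML1 side carry that name. Of 484 ZNF genes tested, 276 (57%) were called lower in U937 and 45 (9.3%) higher, with a median log2 fold change of -0.61, against 29.4% and 32% of all genes. On chromosome 19, where many of them lie in clusters, 156 of 231 (67.5%) were lower and 11 higher, while among the 1003 other genes of that chromosome 17.6% were lower and 38.5% higher. Elsewhere 120 of 253 (47.4%) were lower. Of the 135 genes present in ML1 and nearly absent in U937, 26 were ZNF genes, against 3 of the 117 present in U937. No test was run on this group, since it was picked from these values.

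Cancer-testis genes were nearly all silent in both lines: 19 of 24 had no read in any diluent library and 4 could be tested. PRAME, an antigen of this kind, was at 19.7, 21.6 and 21.2 CPM in ML1 and at 3.2, 2.2 and 2.84 CPM in U937 (-2.92, SE 0.23). Of 9 genes tested from loci that are often deleted, 4 were called higher and 4 lower in U937, and NF1, a RAS inhibitor, was lower (75.4 against 154 CPM, -1.03).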
